A study of Drosophila melanogaster with 4 samples.

Results

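Yp2, Lsp2, Fbp2, apolpp and Mtp are genes of the fat body, the insect tissue that stores fat and releases yolk, storage and lipid carrier proteins into the blood. They were measured in fly heads after chronic strychnine feeding. They were taken by symbol from the platform annotation: 5 genes on 12 spots, of 2664 named genes with a value on at least 1 array. They were chosen by measured values: in earlier results from these same arrays, the list of head fat body genes stood apart in the difference between the log2 ratios of replicates 2 and 4. The values below are therefore a description of the 5 genes. How many of them passed a fit over the whole table is stated beside the same count for all genes, and no p is given for them.

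The fat body of an adult fly also fills part of the head capsule around the brain. It loads lipid onto lipophorin, the blood lipoprotein whose protein part is encoded by apolpp, with the help of the lipid transfer protein encoded by Mtp. It also secretes hexamerins such as Lsp2, which serve as amino acid stores, and in females the yolk proteins, among them Yp2.

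Strychnine, a convulsant alkaloid from plants, blocks glycine-gated chloride channels of vertebrates. Unmated males of the Drosophila melanogaster wild-type strain Oregon-R, 3 to 4 days old at the start, spent 7 days on food with 3.33 mg/ml strychnine. Control males of the same strain and age spent those days on normal food. Heads were taken at the end of the treatment and pooled before RNA extraction, and each of 4 two-colour cDNA arrays, labelled as biological replicates, set a treated pool against its own control pool. Per the labels, Cy5 marked the treated RNA on replicates 1 and 2, and Cy3 marked it on the other arrays. In whole heads, a change in the number of fat body cells and a change in RNA per cell cannot be told apart.

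The slide held 27648 spots, of which 7647 to 9725 had a log2 ratio on an array. Neighbouring spots were taken as pairs of the same cDNA, called probe pairs here, since both carried the same symbol in 7558 of 7558 named pairs. Pairs and blocks of the slide were inferred from feature numbers and symbols, without a layout file. Replicates 1 and 3 held identical values at 7643 of 7643 spots with a value in each, while the labels give them opposite dyes. They were counted as 1 sample, the shared set, which left 3 distinct sets: the shared set, replicate 2 and replicate 4. Each set was centred on its median over genes and unnamed probe pairs, together called units, of which 4002 had a value in all 3 sets. Neither the labels nor the values settle whether a positive ratio means more Cy5 or more treated RNA, so no value below is called an increase or a decrease after strychnine. A pair of summaries is given instead. If ratios are already treated over control, the treatment effect is the mean of the 3 sets. If they are Cy5 over Cy3, it is the difference of replicate 2 minus replicate 4, divided by 2, called the dye-exchange value. Across all units the sets with opposite dyes, replicates 2 and 4, correlated positively (Pearson's r = 0.478 over 4002 units, which share the slide layout and are not independent replicates).

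The 5 genes did not move together. In the shared set 3 of 5 were above 0, on replicate 2 also 3, and on replicate 4 only 2. Fbp2 was above 0 and Yp2 below 0 in all 3 sets, while apolpp, Mtp and Lsp2 changed sign between sets. For comparison, 55.6% of the 4002 units kept their sign over the 3 sets. The median of the 5 means was -0.124, against -0.0312 over all units, and the median of the 5 dye-exchange values was 0.486, against -0.0235 over all units. With limma and Benjamini-Hochberg adjustment, 1 of the 5 (Fbp2) lay apart from 0 in the mean of the sets, where 10.1% of all units did (8.1% positive, as Fbp2 was, and 1.97% negative). In the dye-exchange value 0 of the 5 did, as did 0% of all units (163 of 4002 at an unadjusted p under 0.05). Yp2 did pass there with the values as deposited (1 of 11 units) and without replicate 3 (1 of 3 units). In the earlier results Fbp2 did not pass in the mean, and the cause of that difference was not found. In the dye-exchange fit the shared set was coded 0, since the labels of its columns give opposite dyes. Any treatment effect in that set entered the residual spread, so a count of 0 there cannot show that no unit differed. The dye-exchange value served to choose the genes and the mean rests on the same arrays, so nothing is read from these counts.

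**Figure D1:**
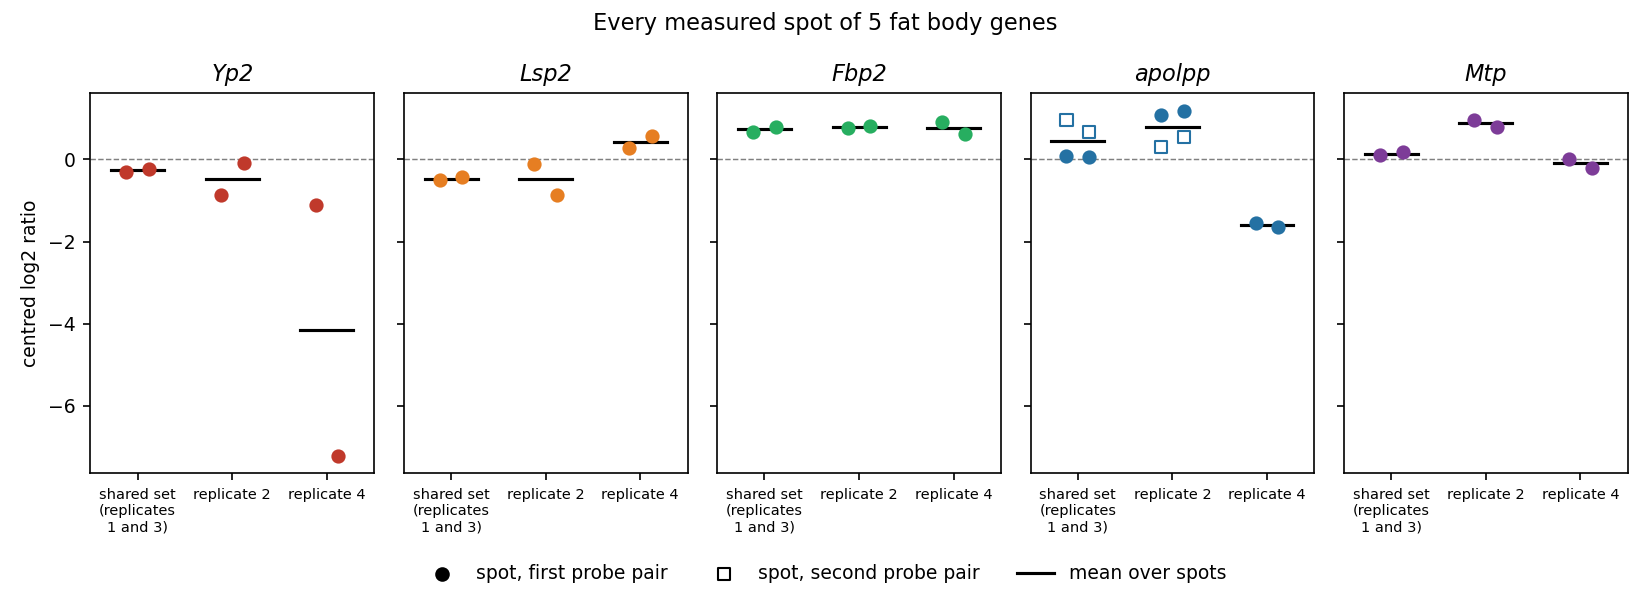
Centred log2 ratio (vertical axis) of every measured spot of the 5 genes in the shared set, replicate 2 and replicate 4. Filled circles are spots of a gene's first probe pair, open squares spots of the second pair of apolpp, and black lines the mean over spots. The value of Yp2 on replicate 4 rests on a single spot at -7.22, whereas both spots of apolpp on that array lie near -1.6.

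Among the secreted proteins, Yp2 encodes yolk protein 2, which the fat body and the ovarian follicle cells of females make and whose gene is normally kept off in the fat body of males. On the centred log2 scale it read -0.259 in the shared set and -0.47 on replicate 2, with -4.16 on replicate 4. Replicate 4 stood apart from the other sets, and only 3 of 4002 units were lower on that array. In the shared set and on replicate 2 the gene lay well inside the spread of all units, above 31.8% and 28.7% of them. The mean of the sets was -1.63 ± 2.19 (SD, n = 3 sets), an SD wider than the mean itself. The dye-exchange value was 1.84, and 0.125% of all units had a larger one in size.

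The low value of Yp2 came from 1 spot. As deposited, its spots on replicate 4 read -1.715 and -7.839, a difference of 6.12, and 3 of 4845 probe pairs on that array differed by more. The median difference between the spots of a pair was 0.168 on replicate 4. On replicate 2 the Yp2 spots also disagreed, by 0.779, which 3.59% of pairs there exceeded, while in the shared set they differed by 0.073. Without the spot at -7.839, Yp2 on replicate 4 was -1.10 after centring, which is still below the 5th percentile of all units there (-0.999). Its mean was then -0.61 and its dye-exchange value 0.31. After a correction for position, which removed block medians and trends within blocks, this remaining spot read -0.685, and Yp2 over both spots read -0.284, -0.61 and -3.74 in the shared set and replicates 2 and 4. Without replicate 4 the mean was -0.37. Of 30 spots of replicate 4 that lay beyond 3 on the centred scale, 20 were low and 10 high, so such readings were not peculiar to Yp2.

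Yp1 and Yp3, the other yolk protein genes, were on the slide on 1 probe pair each and had no value on any array. A cDNA spot for one yolk protein can bind RNA of its close relatives, so the gene behind the Yp2 signal is uncertain.

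Lsp2 encodes larval serum protein 2, a hexamerin that accumulates in the blood of late larvae. It was at -0.466 in the shared set and -0.48 on replicate 2, and at 0.42 on replicate 4. The array with low Yp2 was thus the array on which Lsp2 was high, above 78.2% of all units. Its spots on replicate 2 read -0.111 and -0.858 after centring, a gap that 3.90% of pairs exceeded, and on the other sets they differed by 0.057 and 0.301. The mean was -0.18 ± 0.52 (SD, n = 3 sets) and the dye-exchange value -0.45. The mean was smaller than the spread between the sets, and it turned to 0.046 once slide position was corrected for. Probes for the genes of the Lsp1 hexamerins were not found under their symbols in the annotation.

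Fbp2 encodes fat body protein 2, a larval fat body protein related in sequence to alcohol dehydrogenase. It was the steadiest of the 5, at 0.73 in the shared set and 0.78 on replicate 2, with 0.76 on replicate 4. Its mean was 0.76 ± 0.024 (SD, n = 3 sets), a 1.69-fold ratio, and 99.6% of all units ranged more widely over the sets. After centring, all 6 spot readings were positive and lay between 0.609 and 0.919, with a dye-exchange value of 0.007. As deposited, before centring, its spots on replicate 4 read 0.304 and -0.006. The level was not extreme, since 18.7% of all units had a mean of larger size.

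The steadiness of Fbp2 did not outlast the correction for position. Its block of the slide (block 18 of 48) had median ratios of 0.505 in the shared set and 0.0275 on replicate 2, with 0.232 on replicate 4. After block medians and trends within blocks were removed, Fbp2 was at 0.23, 0.56 and 0.38 in that order, a mean of 0.39. The sign stayed positive in all 3 sets while the near equality of the sets was lost. Fbp1, a hexamerin receptor gene of the larval fat body and no relative of Fbp2, had 2 probe pairs and no value on any array.

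Among the lipid carriers, apolpp encodes the precursor of apolipophorins I and II, the protein part of lipophorin. Averaged over its spots, it read 0.45 in the shared set and 0.78 on replicate 2, but -1.60 on replicate 4. Here too replicate 4 stood apart, with 35 of 4002 units lower. The mean was -0.12 ± 1.29 (SD, n = 3 sets), close to 0 only because the sets cancelled, and 0.61 without replicate 4. The dye-exchange value was 1.19, and 0.775% of all units had a larger one in size.

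Unlike Yp2, the low reading of apolpp on replicate 4 was shared by both spots that gave one, at -1.55 and -1.65. They differed by 0.103, and 66.7% of probe pairs on that array differed by more. The gene has 2 probe pairs, however, and the second had no value on replicate 4. Where both pairs were read they disagreed and changed places. In the shared set the first pair was at 0.0742 and the second at 0.82, whereas on replicate 2 the first was at 1.14 and the second at 0.425. These gaps of 0.747 and 0.711 were not unusual among genes with several probe pairs, of which 30.5% and 43.2% had wider ones in the same sets. By the first pair alone the dye-exchange value was 1.37, and by the second alone the mean of the shared set and replicate 2 was 0.62.

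The order of the apolpp pairs followed the medians of their blocks. The block of the first pair had a median of -0.0818 in the shared set and 0.587 on replicate 2, with -0.218 on replicate 4. The block of the second had 0.505, 0.226 and 0.22. After the correction for position the first pair stood at 0.52, 0.32 and -1.44, and the second at 0.0498 in the shared set and -0.21 on replicate 2. The first pair was then above the second in both sets, and its low value on replicate 4 remained. Over the gene the corrected dye-exchange value was 0.75, against 1.19 without the correction.

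Mtp encodes the fly's microsomal triglyceride transfer protein, which loads lipid onto lipophorin in the fat body. It was at 0.139 in the shared set and 0.88 on replicate 2, with -0.0955 on replicate 4. Replicate 2 was the high one, above 90.0% of units, and the other sets lay near the middle. The spots of each array agreed within 0.207. The mean was 0.31 ± 0.51 (SD, n = 3 sets) and the dye-exchange value 0.49, which 12.7% of units exceeded in size. Its block had medians of 0.369, 0.368 and 0.311 in the 3 sets, and after the correction for position Mtp was at -0.37, 0.37 and -0.34, a mean of -0.11. The mean thus changed sign, and it also did with the values as deposited (-0.0613).

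**Figure D2:**
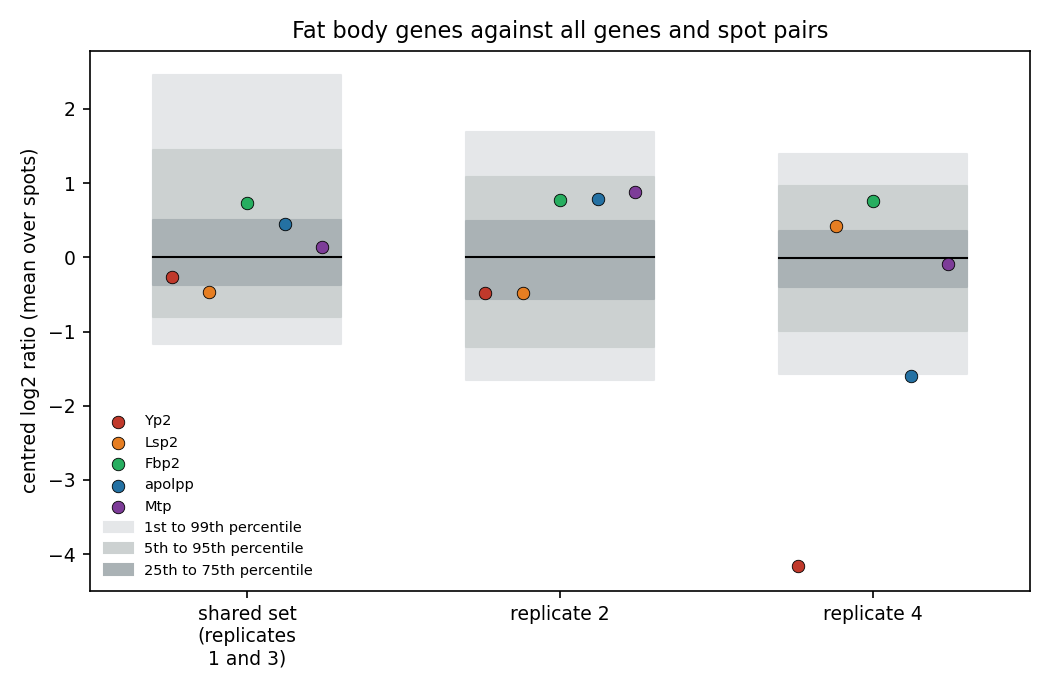
Centred log2 ratio, averaged over spots, of the 5 genes (points) against all 4002 units (grey bands, black line for the median) in the 3 sets. Only Yp2 and apolpp on replicate 4 fall below the 1st percentile, at -4.16 and -1.60 against -1.57.

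In order of the mean, Fbp2 (0.76) came first, followed by Mtp (0.31), apolpp (-0.12), Lsp2 (-0.18) and Yp2 (-1.63). Differences between neighbours in this order were not tested. The SD over sets was 0.507 or more for every gene except Fbp2, and on replicate 2 Mtp was above Fbp2. In order of the dye-exchange value, Yp2 (1.84) and apolpp (1.19) were followed by Mtp (0.49), Fbp2 (0.007) and Lsp2 (-0.45). This second order rests on 1 array against 1 and has no spread of its own.

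A missing value set some members apart. The first pair of apolpp, Mtp and Fbp2, 6 of the 12 spots, had a value on replicate 1 but none on replicate 3, although the columns were identical wherever both had one. Of all spots, 1713 were in that position, and their median in the shared set was 0.403, against -0.0602 for spots with a value on replicate 3. On replicate 2 spots without a replicate 3 value had a median of 0.354, against -0.109 for the rest. The 3 genes concerned were the 3 with a positive value on replicate 2. The part of this in their values was not tested.

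**Figure D3:**
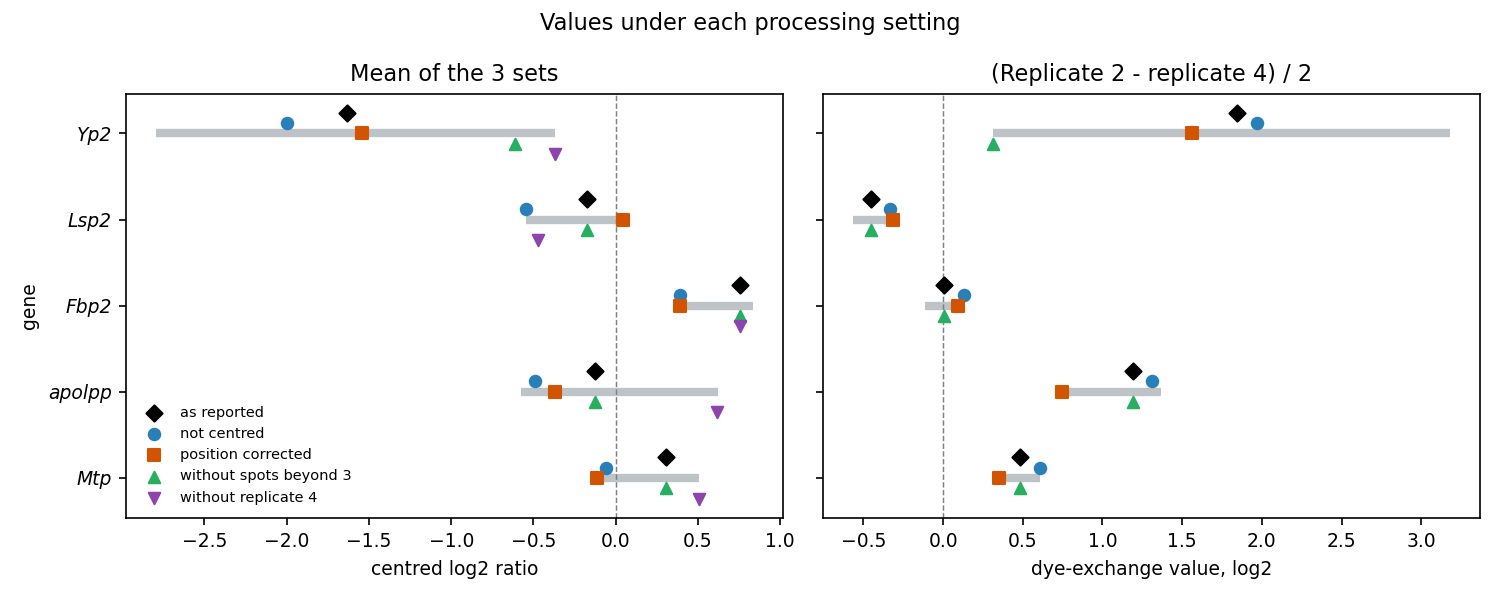
Mean of the 3 sets (left, log2) and dye-exchange value of replicates 2 and 4 (right, log2) of each gene under different processing. Grey bars span all settings tried and symbols mark the value as reported (black diamonds) and 4 of the alternatives. Yp2 moves most, between -2.79 and -0.37 in the mean and between 0.31 and 3.18 in the dye-exchange value, and the means of apolpp, Mtp and Lsp2 cross 0.

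The 3 named genes nearest to each member, by Euclidean distance over the centred values of the 3 sets, describe which other ratios ran alike. Nearest to Yp2 were glob1, which encodes a globin, CG17724 and 7B2, a chaperone gene of neuropeptide processing, at distances of 0.894, 0.901 and 1.20. On replicate 4 they read -4.40, -4.16 and -3.31. Their spots disagreed there as well, as the spots of glob1 at -7.68 and -1.13 show, and those of 7B2 were the closest, at -3.69 and -2.92. Nearest to apolpp were CG13124, CG8888 and CG11089, at 0.342 to 0.418, with replicate 4 values between -1.27 and -1.22. Mtp ran closest to Vha55, a subunit gene of the vacuolar proton pump (distance 0.163), Vajk2 and CG12862. Fbp2 ran closest to CG9967 (0.115), Cul4, a ubiquitin ligase scaffold gene, and Tps1, a trehalose synthesis gene, each between 0.63 and 0.81 in every set. For Lsp2 the nearest was D2hgdh, a hydroxyglutarate dehydrogenase gene, at 0.0354, then CG9281 and CG3732. With 3 sets many genes lie near any point, so short distances among moderate values are common.

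Lists of other fat body and lipid genes were tested across all units. In the mean of the sets, 1382 of 4002 units had an unadjusted p under 0.05 (limma). Counts at that level in the lists below are to be set beside this share. Of 25 listed fat body secreted proteins, 16 were on the slide and 3 had a value in all sets, which were Yp2, Lsp2 and Fbp2. No other secreted protein had a value in all sets. Idgf3 and Idgf5, which encode chitinase-like growth factors of the imaginal disc growth factor family, had values in 2 sets. Idgf3 was at 0.88 in the shared set and 0.31 on replicate 2, and Idgf5 at 1.04 in the shared set and 0.35 on replicate 4. Both were positive throughout, and neither passed in a fit on units with at least 2 sets (means 0.60 and 0.70, limma adjusted p of 0.176 and 0.134). Idgf6, of the same family, had a value on replicate 4 alone and was negative there, at -0.77. Among 29 lipid carriers and their receptors, 6 genes besides apolpp and Mtp were tested, and 0 passed in the mean of the sets (3 at an unadjusted p under 0.05) or in the dye-exchange value (1 at an unadjusted p under 0.05; limma in both). Their median was -0.269 in the mean and 0.00825 in the dye-exchange value, against -0.0312 and -0.0235 over all units.

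The carrier gene with the lowest mean was santa-maria, which encodes a scavenger receptor needed for carotenoid uptake. It read -0.446 in the shared set and -0.55 on replicate 2, with -2.26 on replicate 4. The mean was -1.09 ± 1.02 (SD, n = 3 sets; limma adjusted p = 0.0844). Like Yp2 it was low on replicate 4 with spots that disagreed, at -1.38 and -3.14. Npc2a and Npc2b, which encode sterol-binding proteins, were negative in all sets with means of -0.57 and -0.52 (limma adjusted p of 0.0995 and 0.11). The lipophorin receptor genes stayed near 0: LpR2 had 0.27, 0.40 and 0.10 in the shared set and on replicates 2 and 4 (mean 0.26, limma adjusted p = 0.376), and LpR1 a mean of -0.014. LpR2, like apolpp, was highest on replicate 2 and lowest on replicate 4, over a narrower range, whereas LpR1 was highest on replicate 4.

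For lipid storage, 6 of 27 listed genes of lipid droplets and triglyceride synthesis or breakdown were tested and 0 passed in either summary (limma, 0 at an unadjusted p under 0.05 in both). The lowest mean was that of mdy, the diacylglycerol acyltransferase gene midway, at -0.42 (limma adjusted p = 0.22), and the highest that of Jabba, a lipid droplet protein gene, at 0.35 (adjusted p = 0.311). Lip1, a lipase gene, was at 0.34 and FASN1, a fatty acid synthase gene, at -0.22. FASN1 ran from -0.82 in the shared set to 0.42 on replicate 4, so its mean was smaller than its spread of 0.62 (SD, n = 3 sets).

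Of 29 genes of fat body hormone and nutrient signalling, 5 were tested and 0 passed (limma, 2 at an unadjusted p under 0.05 in the mean and 0 in the dye-exchange value). S6k, the ribosomal S6 kinase gene, was negative in all sets at -0.54, -1.13 and -0.65, with a mean of -0.77 ± 0.32 (SD, n = 3 sets; limma adjusted p = 0.0585). After the correction for position its mean was -0.25. S6k passed with quantile normalization, with array weights and without spots beyond 3. With all 4 columns as labelled, which counts the identical columns as separate samples, S6k and EcR passed, as did Npc2a and Npc2b among the carriers. EcR, the ecdysone receptor gene, was positive in all sets with a mean of 0.66 ± 0.46 (SD, n = 3 sets; limma adjusted p = 0.0969), and 0.11 after that correction. The means of foxo, a transcription factor gene under insulin control, and Ilp2, an insulin-like peptide gene, were -0.37 and -0.11, both smaller than their SD.

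Of 19 regulators of sex and yolk protein genes, EcR and mof had a value in all sets and 0 of these 2 passed (limma, 2 at an unadjusted p under 0.05 in the mean). The mean of mof, an acetyltransferase gene of male dosage compensation, was 0.61 ± 0.20 (SD, n = 3 sets; limma adjusted p = 0.0813), and -0.023 after the correction for position. Another listed gene, msl-3, had values in 2 sets and was negative in both, at -0.58 in the shared set and -0.68 on replicate 2. The genes tra, tra2 and dsx, which set the sex of the fat body and thereby yolk protein output, had no value on any array.

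**Figure D4:**
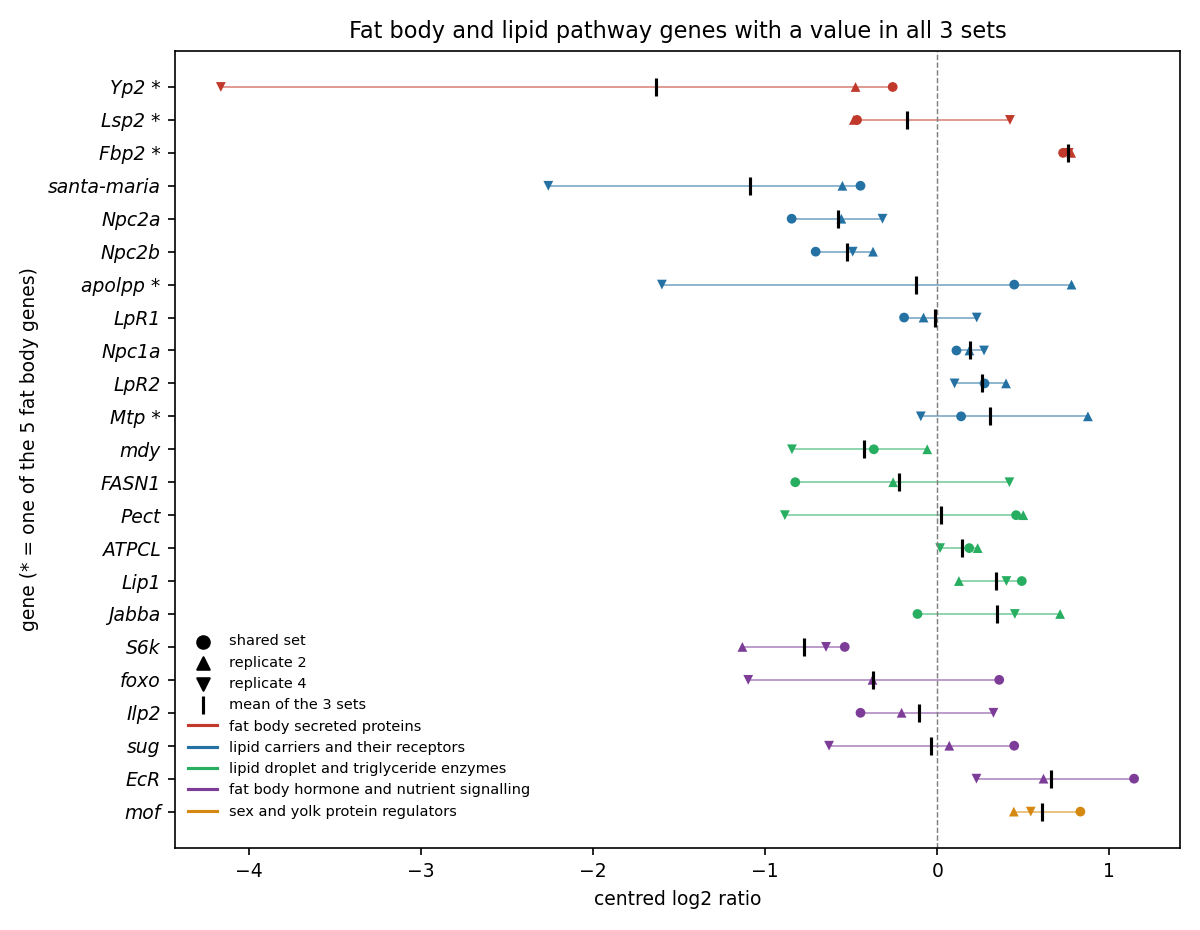
Centred log2 ratio (horizontal axis) of each fat body and lipid gene with a value in all 3 sets: circles for the shared set, upward triangles for replicate 2, downward triangles for replicate 4 and black bars for the mean. EcR stands in 2 lists and is drawn once. The lowest replicate 4 values are those of Yp2 (-4.16), santa-maria (-2.26) and apolpp (-1.60).

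Markers of other tissues were read on the same centred log2 scale. Their ratios do not show how much RNA of a tissue the heads held. Of 10 head fat body markers 9 were on the slide, and the 5 with a value were the genes described here. Of 9 ovary markers only osk was found on the slide under its own symbol, and it had no value on any array. The marker nos was matched to Nos, a different gene, which is not read as an ovary marker. Muscle markers Mlc2 and Act88F had means of -0.80 and -0.70 and TpnC4 one of 0.29, the glial gene Gs2 -0.73, and the hemocyte gene Pxn 0.48. The neuronal gene nSyb had -0.35, and the photoreceptor genes trpl and inaD -0.027 and -0.19. None of these 8 passed (limma). The gut protease genes yip7 and Jon65Aiii passed at 1.55 and 1.34 (limma adjusted p = 0.0385 for each), while Jon66Cii was at -0.59. Testis and accessory gland markers ran from -0.57 to 0.85, and 1 of 3 passed. Of the 5 genes, Yp2 and apolpp were low on replicate 4, while Mtp (-0.0955), Lsp2 (0.42) and Fbp2 (0.76) were not. The 5 were chosen by values that include that array, so nothing is read from setting them against the markers there. The part of other tissues in the values of the 5 genes was not tested.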

How the data were processed

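Per the series' design text, the authors quantified the scans with GenePix Pro 6.0, normalized each array by ratio in Acuity 4.0, filtered spots on intensity, saturation, flags and signal to noise, and used SAM 3.0. The deposited values are read as log2 ratios: the sources used here do not give log base, centring or direction. The highest value, 16.61, equals log2 of 100000. That ratio exceeds the range of a 16-bit scan, as the value read in base 10 or e also would. The scan range therefore cannot settle the log base. The medians of the columns lay between -0.621 and -0.121. Intensities were not used here, so brightness and depth behind a ratio are unknown, and the number of arrays limits the precision.

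Symbols came from the platform annotation (1 symbol for 15116 spots, several for 102, none for 12430), and 14894 spots matched a RefSeq gene table of Release 6 by gene ID. Spots were averaged by symbol or, if unnamed, by probe pair, including different probe pairs of a gene. Identical columns entered once, and each set was centred on its median unit; this centring point was settled after its effect on the count of calls had been seen. Both summaries were fitted with limma 3.58.1 in R 4.3.3 on 4002 units (2027 named): an intercept for the mean, and treatment (coded 0 for the shared set) plus dye for the dye-exchange value, with 1 residual degree of freedom per unit in the latter. Adjusted p-values are Benjamini-Hochberg values over all units, two-sided, threshold 0.05. P-values rest on the spread between 3 sets, which limma moderates toward the spread of all units. The prior had 5.20 degrees of freedom for the mean and 4.86 for the dye-exchange value. They therefore do not measure a unit's own spread alone. The fits were tested on simulated data. For the dye-exchange value the simulated shared set held no treatment effect, so that test cannot show how the fit behaves where it does. Position was corrected by subtracting block medians (48 blocks of 576 spots, a layout inferred from feature numbers) and a robust loess within blocks (span 0.4, at least 30 values).

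The members and the gene lists were chosen with earlier results of these data known. Named are all members, their relatives, list genes past the threshold plus up to 4 per list by unadjusted p, and the 3 genes nearest to each member. LpR1, Idgf3, Idgf5, Idgf6, msl-3, santa-maria's spots, the marker genes, and the sex genes without values were named beyond that rule, after their values were seen.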

Additional observations from a re-analysis of the deposited data

How the results depend on the processing

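The count of units apart from 0 in the mean of the sets, 403 of 4002 (324 positive, 79 negative), depended on the processing. It was 0 with the values as deposited, 0 with scale normalization and 0 after the correction for position, 656 without spots beyond 3, 910 of 3189 with all 4 columns as labelled and 1045 at a threshold of 0.10. Leaving out 1 replicate gave between 8 (without replicate 2) and 563 (without replicate 4), with 41 without replicate 1. In the dye-exchange value 0 units passed, against 11 with the values as deposited, and 1 and 3 without replicates 1 and 3. Without replicate 2 or 4 that fit has no residual degrees of freedom. The cause of these changes was not tested.

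Fbp2, whose spread over sets was small, moved by more than that spread in the mean to 0.39 as deposited, 0.389 after the correction for position, and 0.83 and 0.68 with the higher or lower spot of each set. Its dye-exchange value moved to 0.13, 0.094, -0.0585 and 0.0725 in the same settings, to -0.11 with scale and -0.061 with quantile normalization. Fbp2 passed in the mean in neither the deposited, scaled nor position-corrected values, nor without replicate 2 or 4, and could not be tested without replicate 1 or with all 4 columns. The mean of apolpp changed sign in 5 of 16 alternatives, and those of Mtp and Lsp2 in 2 of 14 each. Yp2 kept its sign in all 14 for the mean and all 12 for the dye-exchange value. The alternatives by apolpp probe pair and by centring on the median spot (425 units, against 403) were chosen after seeing the data.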

Other observations

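Adh, which encodes the alcohol dehydrogenase related in sequence to Fbp2 and is strongly expressed in fat body, is on the slide with 2 probe pairs in different blocks, and they did not agree. The pair in block 2, the block that also holds the first pair of apolpp, read 0.24, 0.925 and -0.41 in the shared set and on replicates 2 and 4. The pair in block 17 read -0.60, -0.62 and -0.42. The pairs lay 0.843, 1.55 and 0.013 apart in these sets, where the median gap over 118 to 129 genes with several probe pairs was 0.486 to 0.635. After the correction for position the means of the pairs were 0.038 and -0.28. The Adh pair that shares its block with apolpp also had the order of the sets seen for apolpp, high on replicate 2 and low on replicate 4. After the correction its values there were nearer to 0, at 0.25 and -0.12. The first pair of apolpp stayed at -1.44 on replicate 4 after the same correction. The part of slide position in these values was not tested.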
